A study of Drosophila melanogaster with 6 samples.

Results

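The midgut of adult Drosophila melanogaster 3 days after a treatment that the labels call Pe was set against that of flies given sucrose. Both groups were wild-type Oregon-R flies with 2 libraries each. The Pe day 3 flies were 7 to 8 days old, and the sucrose flies, labelled Mock day 0, were 4 to 5 days old. The labels do not spell out Pe, and they name no sucrose group of the older age, so treatment, day and age cannot be told apart. The third group, Pe day 0, held 2 libraries of treated flies aged 4 to 5 days and is described only to show where day 3 differed from it. The groups compared thus hold 4 of the 6 libraries of the series. The authors' fit holds all 6 libraries, which share an estimate of each gene's spread. The SE and adjusted p of the comparison therefore rest on the Pe day 0 libraries as well. Each library was made from total midgut RNA, and the deposited table gives gene-level comparisons with Mock and no values per library. Its header names no groups, so the second comparison was taken as Pe day 3 because the table's title puts that group last. Of 14026 genes in the table, 8350 had a mean of at least 20 normalized reads over all libraries. An adjusted p was given for 8316 of them. The other 34 had means between 20 and 20.8, just below the smallest mean with an adjusted p.

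The adult midgut is a tube of absorptive enterocytes and scattered hormone-producing enteroendocrine cells, renewed by intestinal stem cells and wrapped in visceral muscle. Enterocytes secrete digestive proteases and other hydrolases through the endoplasmic reticulum, and a chitinous peritrophic matrix lines the lumen. After damage the epithelium sheds cells, stress pathways such as JNK and JAK-STAT are engaged, and stem cells divide until the tissue is rebuilt. The series was designed to look at how such regeneration starts and how it ends.

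Depth recovered from the table was 1.78e+07 and 1.97e+07 reads for the Pe day 3 libraries, against 1.76e+07 and 1.90e+07 reads for the Mock libraries. Levels below are estimated CPM of a group, its reads scaled to a common library total, computed from the deposited mean and fold changes, and they carry no spread between libraries. A log2 fold change is Pe day 3 over Mock with its standard error (SE), both from the authors' deposited table. A gene is said to have risen or fallen where the authors' adjusted p was below 0.05. Markers of the labelled tissue were present: mex1, an enterocyte gene, was at 291 CPM at Pe day 3 and 220 CPM in Mock, and Myo61F, a brush border myosin gene, at 2058 CPM at Pe day 3 and 1669 CPM in Mock.

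At Pe day 3, 728 genes were higher and 742 lower than in Mock, which is 8.75% and 8.92% of the genes tested and 17.7% together. Most of these changes were small. The median size of a called change was 0.56 on the log2 scale, the median over all tested genes was 0.01, and 239 genes changed at least 2-fold, of which 113 rose and 126 fell. At an unadjusted p below 0.05 there were 2211 genes. The smallest p-values among risen genes belonged to GstD9, a glutathione S-transferase gene (96.7 CPM at Pe day 3, 5.58 CPM in Mock), and Arc1, which encodes a capsid-forming protein (64.3 CPM at Pe day 3, 4.44 CPM in Mock). ImpL2, for a protein that binds insulin-like peptides, was at 46.5 CPM at Pe day 3 and 10.3 CPM in Mock, and CG32195 at 89.3 CPM at Pe day 3 and 19.5 CPM in Mock. The balance of directions depends on the scale: with totals that leave out the 20 most abundant genes, which shifts every gene up by 0.07, 955 genes were higher and 561 lower.

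**Figure D1:**
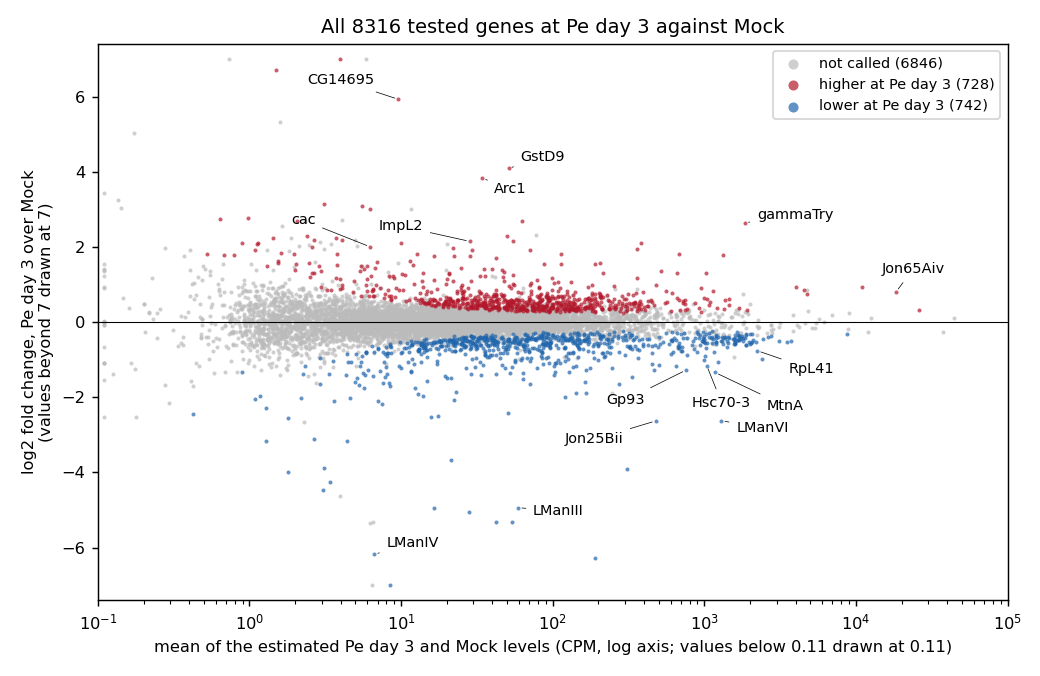
Each point is 1 of the 8316 tested genes, with the mean of its estimated Pe day 3 and Mock levels in CPM on the horizontal log axis (values below 0.11 drawn at 0.11) and its log2 fold change, Pe day 3 over Mock, on the vertical axis. Of these, 728 lie above and 742 below the line as called genes (red and blue), and changes beyond 7 in size are drawn at 7.

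Genes for the machinery of protein synthesis were lower at Pe day 3. Of 85 tested genes for cytosolic ribosomal proteins, which build the ribosome, 81 fell and 0 rose, with a median log2 fold change of -0.44. Their summed level was 101900 CPM at Pe day 3 and 136400 CPM in Mock. RpL41 was at 1679 CPM at Pe day 3 and 2792 CPM in Mock, a log2 fold change of -0.76 (SE 0.10, adjusted p = 1.8e-12) in the authors' deposited table. RpS21 (-0.62, SE 0.09) and RpL29 (-0.63, SE 0.11) fell by similar amounts, and RpL13 (-0.24, SE 0.09) fell least among the called members in the authors' deposited table. RpS5b, a paralog of the general RpS5a gene, was at 1.27 CPM at Pe day 3 and 3.27 CPM in Mock and had the lowest value of the list (-1.39, SE 0.41) in the authors' deposited table. The 4 members that did not pass were RpL12 (-0.26, SE 0.15), RpS7 (-0.28, SE 0.11), RpS10b (-0.28, SE 0.12) and RpLP1 (-0.35, SE 0.15) in the authors' deposited table, so all 85 values were negative. Short genes were lower as a whole in this comparison, and ribosomal protein genes are short (median exon length 936 bases). Set against genes of like length, 57 of the 84 with a known length fell and 0 rose.

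Genes of other steps of translation fell in part. Of 75 genes for mitochondrial ribosomal proteins 39 fell and 0 rose, at a median of -0.43. Among them mRpL14 was at 10.5 CPM at Pe day 3 and 18.0 CPM in Mock, a log2 fold change of -0.81 (SE 0.21) in the authors' deposited table, and mRpL55 stood at -0.76 (SE 0.18). Of these genes 22 fell against genes of like length, 25 with totals that leave out the 20 most abundant genes, and 19 at an adjusted p of 0.01. Of 36 genes for translation initiation factors 10 fell and 2 rose. The lower count was 5 with totals that leave out the 20 most abundant genes and 5 at an adjusted p of 0.01. eIF1, which helps select the start codon, was at 183 CPM at Pe day 3 and 271 CPM in Mock (log2 fold change -0.60, SE 0.10, in the authors' deposited table). The genes for 2 of the subunits of eIF2, which carries the initiator tRNA, were lower as well, eIF2gamma (-0.46, SE 0.09) and eIF2alpha (-0.37, SE 0.11) in the authors' deposited table. The 2 that rose were eIF4G2 (0.58, SE 0.15), for a scaffold protein, and Thor (0.44, SE 0.15), for the inhibitory eIF4E-binding protein, in the authors' deposited table. Thor was at 543 CPM at Pe day 3, against 392 CPM in Mock.

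Genes for ribosome assembly in the nucleolus were lower in 7 of 31 cases and higher in 0. The lower count was 4 with totals that leave out the 20 most abundant genes and 4 at an adjusted p of 0.01. Fib, which encodes the rRNA methyltransferase fibrillarin, was at 52.4 CPM at Pe day 3 and 84.4 CPM in Mock (log2 fold change -0.72, SE 0.17, in the authors' deposited table). Nlp, a nucleoplasmin-like histone chaperone gene, was at 86.1 CPM at Pe day 3 and 159 CPM in Mock (-0.91, SE 0.12, in the authors' deposited table). Of 33 genes for tRNA synthetases 3 fell, AsnRS (-0.48, SE 0.11), LeuRS (-0.44, SE 0.13) and TrpRS (-0.33, SE 0.12) in the authors' deposited table, and 0 rose, a share close to the 8.92% of all genes.

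Genes for protein folding in the endoplasmic reticulum fell together. In the list of the unfolded protein and integrated stress responses, 11 of 24 genes fell and 3 rose. Hsc70-3, the fly BiP chaperone gene, was at 651 CPM at Pe day 3 and 1423 CPM in Mock, 2.23-fold lower (log2 fold change -1.16, SE 0.13, adjusted p = 1.2e-16, in the authors' deposited table). Gp93, the gene for the reticulum's Hsp90, was at 448 CPM at Pe day 3 and 1066 CPM in Mock (-1.28, SE 0.14, in the authors' deposited table). The protein disulfide isomerase genes moved the same way: CaBP1 stood at 108 CPM at Pe day 3 and 247 CPM in Mock, ERp60 at 330 CPM at Pe day 3 and 577 CPM in Mock, and Pdi at 803 CPM at Pe day 3 and 1122 CPM in Mock. The lectin chaperone genes Calr (-0.79, SE 0.09) and Cnx99A (-0.44, SE 0.15) fell in the authors' deposited table. The channel through which new proteins enter the reticulum was lower in all 3 of its subunit genes, Sec61beta (-0.93, SE 0.18), Sec61gamma (-0.94, SE 0.20) and Sec61alpha (-0.49, SE 0.14) in the authors' deposited table.

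The 3 members of that list that rose were signalling genes and not chaperones. PEK, a kinase gene that senses unfolded protein, was at 67 CPM at Pe day 3 and 49.8 CPM in Mock, a log2 fold change of 0.40 (SE 0.11) in the authors' deposited table. The pseudokinase gene trbl was at 52.4 CPM at Pe day 3 and 33.4 CPM in Mock (0.62, SE 0.13, in the authors' deposited table), and Thor was the third. The median of the list was -0.21, and its members are not short (median exon length 2560 bases).

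Several chaperone genes of the cytosol and mitochondria were also lower. In a list of 17 genes for Hsp70, Hsp83 and their partners 5 fell and 2 rose. The 5 include Hsc70-3, the gene of the reticulum's chaperone already described above. Hsp83, the cytosolic Hsp90 gene, was at 806 CPM at Pe day 3 and 1640 CPM in Mock (log2 fold change -1.05, SE 0.15, in the authors' deposited table). Hsc70-4, a constitutive Hsp70 gene, was at 2887 CPM at Pe day 3 and 4117 CPM in Mock. The mitochondrial chaperone genes Hsp60A (-0.65, SE 0.10) and Hsc70-5 (-0.43, SE 0.11) fell in the authors' deposited table. The 2 that rose were mrj, a co-chaperone gene (0.36, SE 0.11, in the authors' deposited table), and Hsp68, a heat-induced Hsp70 gene. Hsp68 was at 3.58 CPM at Pe day 3 and 0.548 CPM in Mock (2.68, SE 0.97, adjusted p = 0.036, in the authors' deposited table), a call lost at an adjusted p of 0.01, and Hsp22, a small heat shock gene, at 1.85 CPM at Pe day 3 and 0.423 CPM in Mock (2.10, SE 0.47, in the authors' deposited table). Of the 6 small heat shock genes tested 2 rose, the other being Hsp23, and 0 fell.

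**Figure D2:**
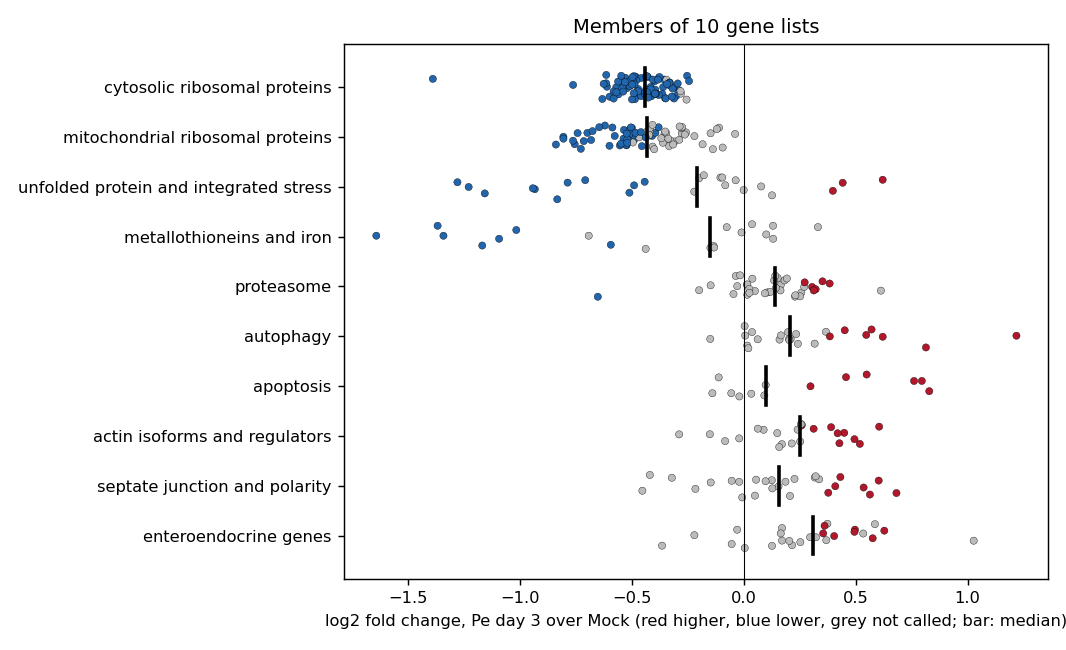
Each point is a tested gene of 1 of 10 gene lists, with its log2 fold change, Pe day 3 over Mock, on the horizontal axis; red points rose, blue points fell, grey points were not called and the bar is the list's median. The ribosomal protein genes lie together left of 0, with medians of -0.44 for the cytosolic and -0.43 for the mitochondrial list.

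All 5 metallothionein genes tested were lower. These genes encode small cysteine-rich proteins that bind copper and zinc. MtnA was at 676 CPM at Pe day 3 and 1680 CPM in Mock, 2.54-fold lower (log2 fold change -1.34, SE 0.20, adjusted p = 2e-09, in the authors' deposited table). MtnD stood at 34.9 CPM at Pe day 3 and 107 CPM in Mock, MtnB at 29.6 CPM at Pe day 3 and 75 CPM in Mock, MtnC at 72.6 CPM at Pe day 3 and 144 CPM in Mock, and MtnE at 61.0 CPM at Pe day 3 and 128 CPM in Mock. These 5 genes were joined by Mco1, a multicopper oxidase gene (-1.17, SE 0.23), and ZnT86D, a zinc transporter gene (-0.59, SE 0.12), in the authors' deposited table. The list of metal and iron genes had 7 of 19 lower and 0 higher, and the same 7 and 0 were counted under each other scale and against genes of like length.

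Digestive protease genes split by gene. Of 30 genes for trypsins and chymotrypsin-like enzymes 7 rose, 6 fell and 17 did not pass, with a median of -0.05, and their summed level was 129500 CPM at Pe day 3 and 107700 CPM in Mock. These counts and sums include 16 Jonah genes, described separately below. gammaTry was at 3204 CPM at Pe day 3 and 503 CPM in Mock, 6.24-fold higher (log2 fold change 2.64, SE 0.17, adjusted p = 2.9e-48, in the authors' deposited table). Its neighbours deltaTry (2067 CPM at Pe day 3, 586 CPM in Mock), CG30025 (1059 CPM at Pe day 3, 293 CPM in Mock) and CG30031 (621 CPM at Pe day 3, 141 CPM in Mock) rose with it. The adjoining betaTry (0.75, SE 0.12) and epsilonTry (0.86, SE 0.13) rose less in the authors' deposited table. In chromosome order these 6 genes, from epsilonTry to deltaTry, were 6 consecutive tested genes on chromosome arm 2R (11345237 to 11356128, BDGP6.54), and all were called higher. Genes of the same cluster on either side were not called: alphaTry was at 34457 CPM at Pe day 3 and 40766 CPM in Mock (log2 fold change -0.27, SE 0.13), and iotaTry stood at -0.39 (SE 0.18), both in the authors' deposited table. Some of these trypsin genes are close copies of each other, and how reads were divided between the copies is not given in the sources used here, so the split within the 6 is uncertain. Farther out in the cluster, zetaTry was lower at 276 CPM at Pe day 3 and 444 CPM in Mock.

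The Jonah genes, a family of chymotrypsin-like gut proteases, had 3 higher and 3 lower members among 16, all of them also in the list of 30. Jon65Aiv was at 23567 CPM at Pe day 3 and 13233 CPM in Mock (log2 fold change 0.80, SE 0.16, in the authors' deposited table), and Jon65Aiii at 14449 CPM at Pe day 3 and 7441 CPM in Mock (0.93, SE 0.17, in the authors' deposited table). Jon25Bii went the other way, with 135 CPM at Pe day 3 and 821 CPM in Mock, 6.20-fold lower (-2.63, SE 0.48, in the authors' deposited table). Jon25Bi (275 CPM at Pe day 3, 653 CPM in Mock) and Jon44E (41.2 CPM at Pe day 3, 81.7 CPM in Mock) were lower as well. Outside the Jonah genes, Try29F was at 16.4 CPM at Pe day 3 and 85.4 CPM in Mock (-2.41, SE 0.49, in the authors' deposited table).

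**Figure D3:**
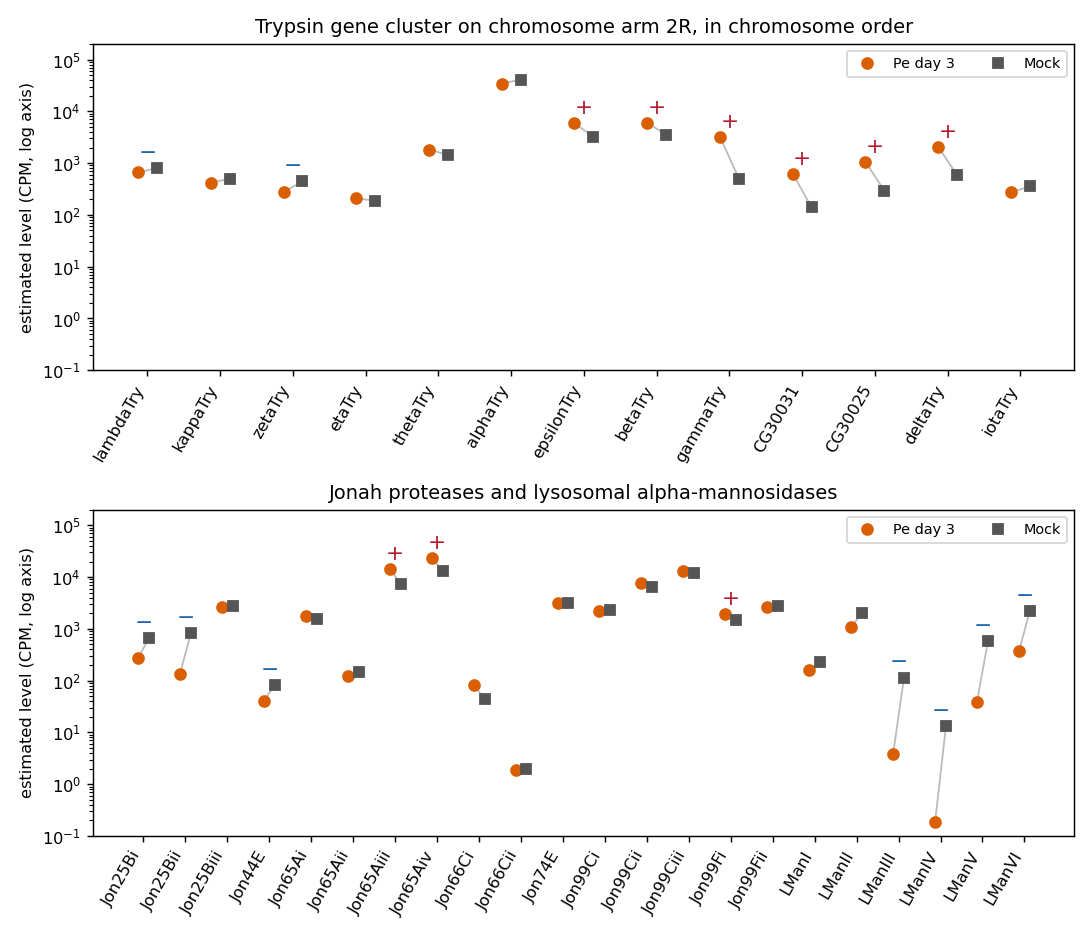
Estimated levels in CPM (log axis) of the trypsin genes of the cluster on chromosome arm 2R in chromosome order (upper panel) and of the Jonah protease and lysosomal alpha-mannosidase genes (lower panel), with a circle for Pe day 3 and a square to its right for Mock, each an estimate for a group without a spread. A plus marks genes that rose and a minus genes that fell; the run from epsilonTry to deltaTry is higher at Pe day 3, and Jon25Bii and LManIII to LManVI are lower.

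Genes for the digestion of sugars and fats were lower in part. Of 14 genes for maltases and amylases 3 fell and 0 rose: Mal-A1 was at 1102 CPM at Pe day 3 and 1725 CPM in Mock (log2 fold change -0.67, SE 0.17, in the authors' deposited table), Mal-A7 at 250 CPM at Pe day 3 and 478 CPM in Mock, and Mal-A3 at 4.26 CPM at Pe day 3 and 10.3 CPM in Mock. In the list of lipases and sterol uptake 4 genes rose and 4 fell of 15. The lipase gene mag, called magro, was at 798 CPM at Pe day 3 and 1258 CPM in Mock (-0.69, SE 0.15, in the authors' deposited table), and Lip3 at 0.531 CPM at Pe day 3 and 3.06 CPM in Mock. Npc1b, needed for sterol absorption in the gut, rose to 1465 CPM at Pe day 3, against 582 CPM in Mock (1.30, SE 0.16, adjusted p = 4.7e-14, in the authors' deposited table). The Npc2 family of sterol-binding protein genes was split: Npc2e (1659 CPM at Pe day 3, 1086 CPM in Mock) and Npc2a (32.5 CPM at Pe day 3, 17.6 CPM in Mock) rose, and Npc2c fell to 0.900 CPM at Pe day 3, against 7.85 CPM in Mock.

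Genes of lysosomal alpha-mannosidases, which trim mannose from glycoproteins, fell in 4 of 6 cases, LManIII, LManIV, LManV and LManVI, all neighbours on chromosome arm 2L (8765273 to 8781252, BDGP6.54), at a median of -3.27 over the 6. Their summed level was 1655 CPM at Pe day 3 and 5199 CPM in Mock. Of 24 genes for the peritrophic matrix, chitin and mucins 4 rose and 2 fell, and the 2 that fell were the chitinase genes Cht9 (16.2 CPM at Pe day 3, 37.2 CPM in Mock) and Cht8 (0.134 CPM at Pe day 3, 0.720 CPM in Mock). The mucin gene Mur29B rose to 455 CPM at Pe day 3, against 302 CPM in Mock.

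Detoxification genes changed in both directions. Of 61 cytochrome P450 genes, whose products oxidize toxins and hormones, 11 rose and 4 fell. That is 18.0% higher, against 8.75% of all genes, and 6.56% lower, below the 8.92% of all genes. Cyp309a1 was at 132 CPM at Pe day 3 and 44.1 CPM in Mock (log2 fold change 1.55, SE 0.17, in the authors' deposited table). Cyp12c1 stood at 224 CPM at Pe day 3 and 116 CPM in Mock (0.92, SE 0.09, in the authors' deposited table), and Cyp6d4 at 148 CPM at Pe day 3 and 69.1 CPM in Mock (1.07, SE 0.14, in the authors' deposited table). The 4 that fell were Cyp4g1, which makes cuticular hydrocarbons in oenocytes (61.4 CPM at Pe day 3, 222 CPM in Mock), Cyp28d1 (83.3 CPM at Pe day 3, 188 CPM in Mock), Cyp4d8 (5.79 CPM at Pe day 3, 22.2 CPM in Mock) and shd, which makes the active form of ecdysone (3.58 CPM at Pe day 3, 9.55 CPM in Mock).

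Glutathione S-transferase genes rose in 10 of 31 cases (32.3%) and fell in 2 (6.45%, below the 8.92% of all genes). Beside the strongest of the D class, 5 members of the E class, GstE1, GstE3, GstE6, GstE7 and GstE8, rose, among them GstE1 (74.4 CPM at Pe day 3, 36.8 CPM in Mock) and GstE7 (106 CPM at Pe day 3, 55.9 CPM in Mock). At Pe day 0 against Mock the authors' deposited table has positive values for GstE1 (1.59) and GstE6 (1.45) and negative ones for GstE7 (-0.62), GstE8 (-0.55) and GstE3 (-0.79). With totals as the scale the last 3 were at 0.05, 0.12 and -0.12 and were not called. The 2 lower members were GstT4 (-0.46, SE 0.17) and GstO1 (-0.64, SE 0.21) in the authors' deposited table. At an adjusted p of 0.01, and against genes of like length, 0 were lower. Glutathione synthesis itself was split: Gclc, the catalytic subunit gene of glutamate-cysteine ligase, rose (0.42, SE 0.12), and Gclm, its modifier subunit gene, fell (-0.66, SE 0.14), in the authors' deposited table. Of 28 genes for UDP-glycosyltransferases, which attach sugars to toxins, 4 rose (14.3%) and 5 fell (17.9%). Ugt37b1 was at 10.7 CPM at Pe day 3 and 29.3 CPM in Mock, and CG5999 at 35.2 CPM at Pe day 3 and 8.85 CPM in Mock.

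**Figure D4:**
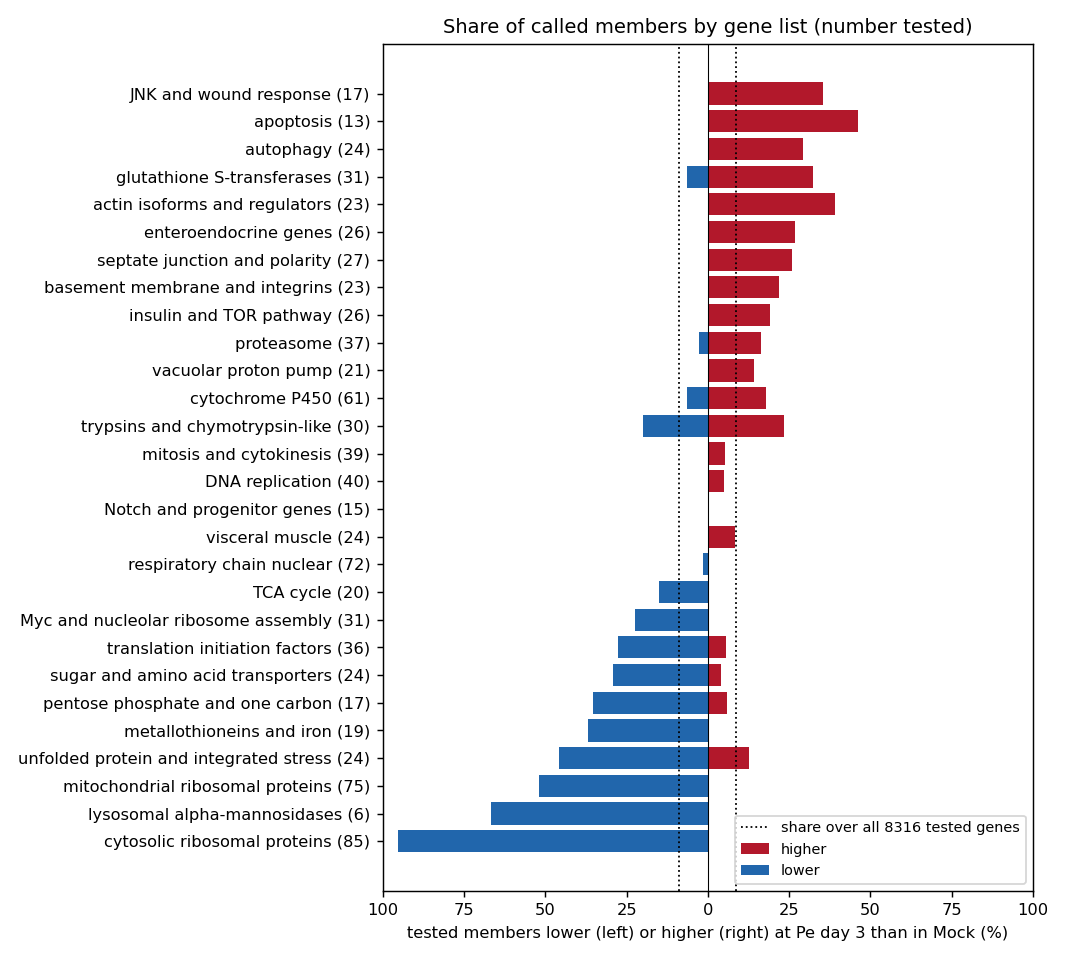
For a selection of the gene lists, the share of tested members that rose and the share that fell at Pe day 3 against Mock, in percent, with the number tested beside each name. Dotted lines mark the shares over all tested genes, 8.75% higher and 8.92% lower; the cytosolic ribosomal proteins have 81 of 85 members lower.

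Genes for autophagy, by which cells digest their own contents, rose in 7 of 24 cases and fell in 0, with a median of 0.21. ref(2)P, the fly p62 receptor gene, was at 714 CPM at Pe day 3 and 398 CPM in Mock (log2 fold change 0.81, SE 0.10, adjusted p = 3.7e-14, in the authors' deposited table). Atg8a, for the protein that coats autophagosomes, was at 424 CPM at Pe day 3 and 304 CPM in Mock (0.45, SE 0.11, in the authors' deposited table). Atg18b (46.5 CPM at Pe day 3, 19.6 CPM in Mock) and Atg3 (104 CPM at Pe day 3, 66.1 CPM in Mock) rose, as did Atg4b, Atg9 and Atg18a. Genes of the proton pump that acidifies lysosomes rose in 3 of 21 cases and fell in 0, with Vha100-5 at 1053 CPM at Pe day 3 and 804 CPM in Mock. Their median was 0.23, and with totals that leave out the 20 most abundant genes 8 of them rose.

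Of 13 apoptosis genes 6 rose and 0 fell. They comprised the caspase genes Dronc (19.2 CPM at Pe day 3, 10.6 CPM in Mock), Damm (505 CPM at Pe day 3, 285 CPM in Mock), Strica (50.2 CPM at Pe day 3, 33.6 CPM in Mock), Drice (19.7 CPM at Pe day 3, 14.1 CPM in Mock) and Decay (309 CPM at Pe day 3, 247 CPM in Mock). The sixth was Dark, the gene of the Apaf-1-like adaptor that activates Dronc, with 29.7 CPM at Pe day 3 and 17.2 CPM in Mock (log2 fold change 0.76, SE 0.17, in the authors' deposited table). Damm had the smallest adjusted p of the list (0.80, SE 0.12, adjusted p = 1e-08, in the authors' deposited table), and its value at Pe day 0 against Mock was -0.01, or 0.66 with totals as the scale. Proteasome genes rose in 6 of 37 cases, 5 of them for subunits of the regulatory particle such as Rpn5 (0.38, SE 0.11, in the authors' deposited table). The higher count was 10 with totals that leave out the 20 most abundant genes and 1 at an adjusted p of 0.01. The proteasome activator gene REG was the 1 that fell (-0.65, SE 0.11, in the authors' deposited table).

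Some genes of cell shape and adhesion were higher, and most members of these lists did not pass. Of 23 genes for actin and its regulators 9 rose and 0 fell, at a median of 0.25. Arp2, of the complex that branches actin filaments, was at 213 CPM at Pe day 3 and 153 CPM in Mock (log2 fold change 0.45, SE 0.09, in the authors' deposited table). Act42A, a cytoplasmic actin gene, was at 143 CPM at Pe day 3 and 92.0 CPM in Mock, and zip, the nonmuscle myosin heavy chain gene, at 401 CPM at Pe day 3 and 279 CPM in Mock. Of 27 genes for septate junctions and polarity 7 rose and 0 fell. mesh, a smooth septate junction gene, was at 1309 CPM at Pe day 3 and 885 CPM in Mock, and its partner Tsp2A at 320 CPM at Pe day 3 and 242 CPM in Mock. cora (0.68, SE 0.12), l(2)gl (0.60, SE 0.10), Nrg (0.56, SE 0.16), aPKC (0.43, SE 0.11) and scrib (0.41, SE 0.11) rose in the authors' deposited table.

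In the list of the basement membrane and integrins 5 of 23 genes rose and 0 fell, at a median of 0.02, with 12 positive and 11 negative values. They included the integrin genes scb (356 CPM at Pe day 3, 215 CPM in Mock), mys (215 CPM at Pe day 3, 141 CPM in Mock) and Itgbn (106 CPM at Pe day 3, 83.7 CPM in Mock). Genes of these adhesion lists are long (median exon lengths 5137 and 5560 bases), and long genes were slightly higher as a whole. Against genes of like length 7 junction genes, 2 integrin and basement membrane genes and 6 actin genes rose.

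Some signalling genes of the damage response were higher, and most members of these lists did not pass. Of 17 genes of the JNK pathway and wound response 6 rose and 0 fell, and each of the 6 was lower at Pe day 3 than at Pe day 0 (Wald test). The AP-1 transcription factor genes kay, the fly Fos (244 CPM at Pe day 3, 121 CPM in Mock), and Jra, the fly Jun (80.9 CPM at Pe day 3, 56.3 CPM in Mock), were among them, as was the kinase gene msn (210 CPM at Pe day 3, 132 CPM in Mock). Ets21C, a transcription factor gene induced by stress, was at 12.5 CPM at Pe day 3 and 5.43 CPM in Mock (log2 fold change 1.18, SE 0.22, in the authors' deposited table). It stood at 294 CPM at Pe day 0, and its log2 difference, Pe day 3 minus Pe day 0, was -3.92 (adjusted p = 3.8e-91, Wald test). In the EGFR list 3 of 15 genes rose and 0 fell, with rho, the protease gene that releases EGFR ligands, at 1.12 CPM at Pe day 3 and 0.164 CPM in Mock (2.75, SE 0.73, in the authors' deposited table), and Mkp3, a phosphatase gene that damps ERK, at 25 CPM at Pe day 3 and 15.7 CPM in Mock. In the JAK-STAT list 3 of 10 rose: the cytokine genes upd2 (1.23 CPM at Pe day 3, 0.352 CPM in Mock) and upd3 (2.34 CPM at Pe day 3, 0.766 CPM in Mock), and the phosphatase gene Ptp61F (61.3 CPM at Pe day 3, 41.3 CPM in Mock). Their log2 fold changes were 1.77 (SE 0.51), 1.58 (SE 0.35) and 0.54 (SE 0.12) in the authors' deposited table. With totals that leave out the 20 most abundant genes, 6 EGFR and 5 JAK-STAT genes rose.

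Other pathways showed single changes. In the BMP and activin list cv-2, for a BMP-binding protein, rose to 11.7 CPM at Pe day 3, against 4.86 CPM in Mock (log2 fold change 1.24, SE 0.22, in the authors' deposited table), while the ligand gene dpp fell to 7.75 CPM at Pe day 3, against 16.5 CPM in Mock (-1.12, SE 0.23, in the authors' deposited table). In all 2 of the 19 members rose and 3 fell, 10.5% and 15.8% against 8.75% and 8.92% of all genes. At an adjusted p of 0.01 these counts were 1 and 1. In the Wnt and Hippo list Apc rose (0.63, SE 0.15), and the TCF gene pan (-0.64, SE 0.13) and the feedback inhibitor gene nkd (-1.07, SE 0.31) fell, in the authors' deposited table, of 23 members. These shares, 4.35% higher and 8.70% lower, were below those of all genes. In the insulin and TOR list 5 of 26 rose (19.2%, and 2 genes at an adjusted p of 0.01) and 0 fell. Pi3K21B, the adaptor subunit gene of PI3-kinase, was among those that rose (39.7 CPM at Pe day 3, 18.4 CPM in Mock). The nuclear receptor gene Hr96, a regulator of lipid and xenobiotic responses, rose to 116 CPM at Pe day 3, against 66.4 CPM in Mock (0.77, SE 0.11, in the authors' deposited table). Of the small RNA genes Dcr-2 (0.54, SE 0.14) and AGO2 (0.35, SE 0.12), of the siRNA pathway, rose and Tudor-SN (-0.45, SE 0.13) fell among 15 in the authors' deposited table. That is 13.3% higher and 6.67% lower, and 1 rose at an adjusted p of 0.01.

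Few genes of dividing cells were called. Of 40 DNA replication genes 2 rose and 0 fell: RnrL, for the large subunit of ribonucleotide reductase (10.5 CPM at Pe day 3, 6.30 CPM in Mock), and RpA-70, for a single-strand DNA-binding protein (43.5 CPM at Pe day 3, 26.5 CPM in Mock). Of 39 genes of mitosis and cytokinesis 2 rose, Klp10A and pnut, and 0 fell. Both lists had medians above that of all genes, 0.23 and 0.26 against 0.01, with shares called higher below the 8.75% of all genes. Of 15 Notch pathway and progenitor genes 0 were called, and the smallest adjusted p in that list was 0.18, for Sox21a (9.48 CPM at Pe day 3, 6.98 CPM in Mock; log2 fold change 0.41, SE 0.21) in the authors' deposited table. esg, which marks stem cells and their immediate daughters, was at 35.4 CPM at Pe day 3 and 30.1 CPM in Mock.

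Immune genes were called in part. All 14 antimicrobial peptide genes in the table were too low to be tested, at 1.13 CPM in sum at Pe day 3 and 2.21 CPM in Mock. In the Imd list 4 of 19 genes rose and 0 fell, with the NF-kappaB gene Rel at 148 CPM at Pe day 3 and 106 CPM in Mock (log2 fold change 0.45, SE 0.13, in the authors' deposited table) and the IKK subunit gene key at 63.7 CPM at Pe day 3 and 44.9 CPM in Mock. Of 11 genes for peptidoglycan recognition proteins the amidase genes PGRP-SC1a and PGRP-SC1b fell and PGRP-LA rose. PGRP-SC1a was at 48.7 CPM at Pe day 3 and 191 CPM in Mock, 4.00-fold lower (log2 fold change -2.0, SE 0.24, adjusted p = 7.9e-15, in the authors' deposited table). PGRP-SC1a and PGRP-SC1b (22.1 CPM at Pe day 3, 47.4 CPM in Mock) are near-identical copies, so the division of reads between them is uncertain. In the Toll list the adaptor gene Myd88 was the 1 of 14 that rose (0.58, SE 0.13, in the authors' deposited table).

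Metabolic genes changed in both directions. In a list of 17 genes of glycolysis and linked reactions 3 fell and 0 rose. These were Gpdh (338 CPM at Pe day 3, 508 CPM in Mock) and Gpo-1, both for glycerol-3-phosphate dehydrogenases, and the aldolase gene Ald. Ald, of glycolysis itself, had a log2 fold change of -0.27 (SE 0.10) in the authors' deposited table. In a list of 20 genes of the TCA cycle and linked reactions 3 fell and 0 rose. One was Idh, for an isocitrate dehydrogenase, at 714 CPM at Pe day 3 and 1304 CPM in Mock. Its log2 fold change was -0.90 (SE 0.21) in the authors' deposited table. The others were kdn (-0.51, SE 0.16) and the malic enzyme gene Men-b (-0.51, SE 0.19) in the authors' deposited table. In the list of the pentose phosphate and one-carbon pathways 6 of 17 fell and 1 rose, AhcyL1 (111 CPM at Pe day 3, 84.4 CPM in Mock). At an adjusted p of 0.01 the lower counts of these 3 lists were 1, 1 and 3. In the list of lipid synthesis and storage 4 of 26 rose and 4 fell. The fatty acid synthase genes FASN1 (179 CPM at Pe day 3, 257 CPM in Mock), FASN2 (4.04 CPM at Pe day 3, 12.8 CPM in Mock) and FASN3 (3.78 CPM at Pe day 3, 11.5 CPM in Mock) all fell, while the desaturase gene Desat1 (874 CPM at Pe day 3, 614 CPM in Mock) and CG3812, named Agpat1 in the current annotation (19.8 CPM at Pe day 3, 5.49 CPM in Mock), rose. Treh, for the enzyme that splits the blood sugar trehalose, rose to 425 CPM at Pe day 3, against 251 CPM in Mock, and the trehalose transporter gene Tret1-1 fell to 33.1 CPM at Pe day 3, against 73.9 CPM in Mock. Of 24 sugar, ion and amino acid transporter genes 7 fell and 1 rose, including the amino acid transporter genes slif (357 CPM at Pe day 3, 541 CPM in Mock) and path (194 CPM at Pe day 3, 278 CPM in Mock).

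Genes of the respiratory chain were rarely called. Of its 72 tested nuclear genes 1 fell and 0 rose, at a median of -0.12, and these genes are also short (median exon length 843 bases). The 1 that fell was Cyt-c-p, the cytochrome c gene (-0.62, SE 0.20, in the authors' deposited table). Of 12 genes encoded in mitochondrial DNA 0 were called in the authors' deposited table, at a median of -0.16, and the smallest adjusted p was 0.19, for mt:CoII and mt:ND3.

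Markers of cell types bear on how these values are read, since in whole midguts fewer cells of a type and less RNA per cell cannot be told apart. Enteroendocrine genes rose in 7 of 26 cases and fell in 0, at a median of 0.31, and their summed level was 1134 CPM at Pe day 3 and 981 CPM in Mock. The peptide hormone genes AstA (57.2 CPM at Pe day 3, 42.4 CPM in Mock), Orcokinin (69.3 CPM at Pe day 3, 53.1 CPM in Mock), Dh31 (15.6 CPM at Pe day 3, 10.2 CPM in Mock) and ITP (20.6 CPM at Pe day 3, 14.3 CPM in Mock) rose, and AstC (189 CPM at Pe day 3, 216 CPM in Mock) and Tk (108 CPM at Pe day 3, 91.7 CPM in Mock) were not called. Phm, for an enzyme that matures peptide hormones, rose too (log2 fold change 0.36, SE 0.11, in the authors' deposited table). The calcium channel gene TrpA1, which acts in a subset of enteroendocrine cells, was at 36.7 CPM at Pe day 3 and 13.3 CPM in Mock (1.44, SE 0.35, in the authors' deposited table). Of 14 enterocyte genes 4 rose and 0 fell, with 9 positive and 5 negative values. Their median was 0.11. Their summed level, in which the most abundant members weigh most, was lower, at 40240 CPM at Pe day 3 and 45500 CPM in Mock. The sum therefore does not stand for the list as a whole. Of 24 visceral muscle genes 2 rose, Zasp52 (59.6 CPM at Pe day 3, 40.1 CPM in Mock) and flr, and 0 fell. That is 8.33% higher, close to the 8.75% of all genes, and 1 rose at an adjusted p of 0.01.

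Genes of other tissues were also present, at unlike levels. Yolk and fat body genes summed to 305 CPM at Pe day 3 and 304 CPM in Mock with 0 of 6 called in the authors' deposited table, and the male reproductive list summed to 2.77 CPM at Pe day 3 and 3.27 CPM in Mock. Haemocyte genes summed to 159 CPM at Pe day 3 and 152 CPM in Mock, with 1 of 11 higher, crq, and 1 lower, srp. Eye and neuron genes rose in 4 of 16 tested cases and summed to 211 CPM at Pe day 3 and 150 CPM in Mock. Among these 4, cac, for a voltage-gated calcium channel subunit, had the smallest p. Next came ninaE (log2 fold change 7.13, SE 1.66) and Arr2 (6.72, SE 2.14) in the authors' deposited table. Arr1 and ninaC, below, are given by level only, without a call. Photoreceptor genes were near 0 in Mock: ninaE, the main rhodopsin gene, was at 7.82 CPM at Pe day 3 and 0.0548 CPM in Mock, Arr1 at 3.08 CPM at Pe day 3 and 0.0752 CPM in Mock, Arr2 at 2.98 CPM at Pe day 3 and 0.0278 CPM in Mock, and ninaC at 1.10 CPM at Pe day 3 and 0.00996 CPM in Mock. The Malpighian tubule and hindgut list summed to 346 CPM at Pe day 3 and 382 CPM in Mock. The midgut's own Notch and progenitor list summed to 246 CPM at Pe day 3 and 223 CPM in Mock. In the tubule and hindgut list 0 of 11 rose and 2 fell, but Uro, the urate oxidase gene of the tubule, was at 20.7 CPM at Pe day 3 and 2.54 CPM in Mock with a wide error (3.0, SE 1.64, adjusted p = 0.23, in the authors' deposited table). Oatp58Dc, a transporter gene, was at 7.14 CPM at Pe day 3 and 1.07 CPM in Mock. The part of carried-over tissue in the other results was not tested.

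Changes followed gene length over the whole table. In the tenth of genes with the shortest exons (median 682 bases) the median log2 fold change was -0.17, with 6.41% higher and 18.6% lower. In the tenth with the longest exons (median 7780 bases) the median was 0.08, with 11.3% higher and 2.30% lower. At Pe day 0 against Mock the medians of the same length groups were -0.29 and -0.06. The medians at Pe day 0 did not climb steadily with length, as the highest, 0.11, was in a group of shorter genes (median 1306 bases). Lengths were known for 8244 of the tested genes. The cause of this trend was not tested.

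**Figure D5:**
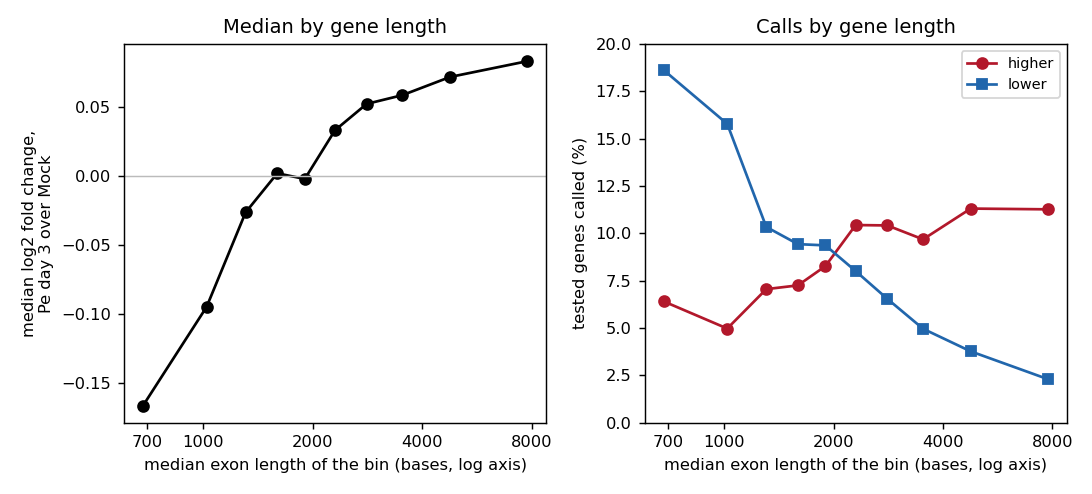
Tested genes in 10 equal groups by exon length, with the median length of each group in bases on the horizontal log axis; the left panel gives the median log2 fold change, Pe day 3 over Mock, and the right panel the percent of genes higher and lower at Pe day 3. The share of lower genes goes from 18.6% in the shortest group to 2.30% in the longest.

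Many of the changes at Pe day 3 differed from those at Pe day 0. In a Wald test of the difference between the 2 groups, 2278 genes were higher at Pe day 3 than at Pe day 0 (27.4%) and 2100 lower (25.3%), 52.6% together. This split rests on the size factors, since Pe day 0 totals imply another scale, under which 777 were higher and 5248 lower. Cytosolic ribosomal protein genes were higher at Pe day 3 than at Pe day 0 in 83 of 85 cases, but with totals as the scale 11 were higher and 3 lower. Their summed level was 101900 CPM at Pe day 3 and 96090 CPM at Pe day 0. Digestive protease genes were higher in 29 of 30 cases, and in 27 with totals. Mitochondrial ribosomal protein genes ran the other way, with 1 higher and 41 lower of 75, and 0 higher and 75 lower with totals. Metallothionein genes were split between the times. MtnD stood at 34.9 CPM at Pe day 3 and 134 CPM at Pe day 0. MtnE was at 61.0 CPM at Pe day 3 and 211 CPM at Pe day 0. Both were lower at Pe day 3 (log2 differences -1.30, adjusted p = 6e-09, and -1.15, adjusted p = 7.4e-08, Wald test). With the authors' size factors MtnC was higher at Pe day 3 (0.87, adjusted p = 1.1e-07, Wald test). Its levels were 72.6 CPM at Pe day 3 and 61.8 CPM at Pe day 0. MtnA did not pass (0.28, adjusted p = 0.23, Wald test). Hsc70-3, Gp93 and Calr, each lower than in Mock at both times with the authors' size factors, had log2 differences between the times of -0.07, 0.12 and 0.00 that did not pass (adjusted p = 0.69, 0.5 and 0.99, Wald test). This rests on the scale: Hsc70-3 was at 651 CPM at Pe day 3 and 1060 CPM at Pe day 0, and with totals the log2 differences were -0.70, -0.52 and -0.64, all called lower. With totals Calr was not called against Mock at Pe day 0 (-0.12).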

How the data were processed

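RNA-seq was made from adult midguts in 3 groups of 2 libraries, grouped by the sample titles. Tools listed in the submitters' processing notes are DESeq2 1.22.0, Salmon 0.11.3, fastp 0.19.5 and CASAVA 1.8, and the build is BDGP6. Options and strandedness are not stated there. Per the file headers, the authors deposited for each of 14026 genes a mean signal (reads over a size factor), and for 2 comparisons with Mock a log2 fold change and its SE, a score (the Wald statistic) and p-values before and after adjustment, from DESeq2's Wald test. The deposited adjusted p-values match Benjamini-Hochberg adjustment within the 8316 genes whose mean is 20.8 or more. The table has 0 columns per library, so whether 1 library carries a change cannot be seen. P-values measure the spread between libraries, which may be technical, as the labels do not say that libraries came from separate dissections.

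From these values, with Python 3.11.15 and scipy 1.17.1, size factors were recovered from genes with a single read, group means from the mean and both fold changes, and dispersions from the SE. The dispersions gave a Wald test of Pe day 3 against Pe day 0, checked on simulated data. Bounds for genes with no reads use 3 counts over the group and cover counting error only. Coordinates and exon lengths come from Ensembl release 115 (BDGP6.54), matched by gene identifier, and positions are not those of the authors' run.

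Genes were named by a rule: the 15 largest changes and the 5 smallest p-values in each direction among called genes of at least 10 CPM, and up to 3 members per list and direction. Not every gene that the rule takes is described. Others that fill out a group, such as Arr1, ninaC, Oatp58Dc and the trypsin neighbours, were added after their values were seen. The 68 gene lists and the rule were chosen with earlier results of these data known. Other scales, minimum means, thresholds and a null of 1.5-fold were tried, and a comparison with genes of like exon length was added after the length trend was seen, as were totals as the scale for lists and single genes at Pe day 0.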

Additional observations from a re-analysis of the deposited data

Results flagged for a closer look

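Of the genes named for the size or p of their change, 2 were called in opposite directions against Mock at the 2 times, with the difference between the times called as well. gammaTry, a trypsin gene, was higher at Pe day 3 (log2 fold change 2.64) and lower at Pe day 0 (-0.86) in the authors' deposited table, a log2 difference, Pe day 3 minus Pe day 0, of 3.51 (adjusted p = 3.4e-87, Wald test). cac, which encodes a voltage-gated calcium channel subunit, was higher at Pe day 3 (2.0) and lower at Pe day 0 (-1.45) in the authors' deposited table, a log2 difference of 3.46 (adjusted p = 1.3e-15, Wald test). Its levels were 10 CPM at Pe day 3, 1.43 CPM at Pe day 0 and 2.46 CPM in Mock. With totals as the scale the differences were 2.87 for gammaTry and 2.82 for cac. Neither was then called lower at Pe day 0 than in Mock (gammaTry -0.20, adjusted p = 0.33, and cac -0.79, adjusted p = 0.11, Wald test). For these 2 genes the opposite directions rest on the authors' size factors. Genes named only through a list are not counted here. Among those, epsilonTry was at 0.86 at Pe day 3 and -2.33 at Pe day 0 in the authors' deposited table. Its Pe day 0 value lies below the log2 ratio of normalized totals, Pe day 0 over Mock, of -0.67. Photoreceptor genes are also near 0 in Mock and present at Pe day 3; their part in the change of cac was not tested.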

How the results depend on the processing

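No paired analysis was possible because the table holds no values per library, and for the same reason leaving out each library was not run, so a call that rests on 1 library would not show. The 728 higher and 742 lower genes became 808 and 669 with totals as the scale, 955 and 561 with totals that leave out the 20 most abundant genes (63.0% of calls higher, against 49.5%), 643 and 672 with no minimum mean, 733 and 743 with a mean of at least 100, and 608 and 660 against genes of like exon length, an alternative chosen after seeing the data. At an adjusted p of 0.01 they were 440 and 502, and against a null of at most 1.5-fold 45 and 51, so most calls are changes that these data do not show to exceed 1.5-fold. At 0.01 the higher counts were 4 autophagy, 3 actin, 3 integrin and basement membrane, 3 enteroendocrine, 6 P450, 2 Imd and 1 proton pump genes. Pe day 3 against Pe day 0 went to 777 higher and 5248 lower with totals. Of 211 named genes that were called, 204 stayed called with totals, 201 with totals that leave out the 20 most abundant genes, 199 with no minimum mean, 164 at 0.01, 38 against the 1.5-fold null, and 195 of the 207 with a length against genes of like length; 0 reversed under these alternatives.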

Other observations

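Further genes, chosen after their values were seen, lie outside the lists. Gba1a, a glucocerebrosidase gene, was at 284 CPM at Pe day 3 and 95.1 CPM in Mock (log2 fold change 1.55, SE 0.16, in the authors' deposited table). Its value at Pe day 0 was -0.79 with the authors' size factors. This rests on the scale, since the log2 ratio of normalized totals, Pe day 0 over Mock, was -0.67. Gcn5, a histone acetyltransferase gene, was at 68.5 CPM at Pe day 3 and 26.6 CPM in Mock. Fst, named Frost for its induction by cold, was at 752 CPM at Pe day 3 and 289 CPM in Mock. Adh, the alcohol dehydrogenase gene, was at 135 CPM at Pe day 3 and 415 CPM in Mock (-1.65, SE 0.24, in the authors' deposited table). Mdr50, for an ABC transporter, was at 149 CPM at Pe day 3 and 340 CPM in Mock (-1.22, SE 0.14, in the authors' deposited table).

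Genes without a given name held several of the extremes. CG14695 was at 18.8 CPM at Pe day 3 and 0.303 CPM in Mock, 60.9-fold higher (log2 fold change 5.93, SE 0.47, in the authors' deposited table). CG7298 was at 108 CPM at Pe day 3 and 16.3 CPM in Mock, and CG6967 at 83.1 CPM at Pe day 3 and 16.6 CPM in Mock. CG16826 was at 4.91 CPM at Pe day 3 and 375 CPM in Mock, with a wide error (-6.28, SE 1.72, in the authors' deposited table). CG33502 had 0 estimated reads at Pe day 3 and was at 16.9 CPM in Mock and 18.2 CPM at Pe day 0, at least 216-fold lower at Pe day 3 than in Mock against a floor of 3 counts over the group. Its error in the authors' deposited table is very wide (SE 4.79 on the log2 scale), the bound covers counting error only, and Pe day 3 against Pe day 0 did not pass (adjusted p = 0.94, Wald test).

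Called genes also lay side by side elsewhere. MFS1, CG30265, CG12490 and CG9825, 4 consecutive tested genes on chromosome arm 2R (22829644 to 22839291, BDGP6.54), all fell, with log2 fold changes between -2.11 and -1.29 in the authors' deposited table. On chromosome arm 3R, 5 consecutive tested genes from hth to CG14683 (10507561 to 10703316, BDGP6.54) fell, between -1.33 and -0.44 in the authors' deposited table, pug among them.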
